A study of Rattus norvegicus with 24 samples.

Results

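Vincristine, a chemotherapy drug that binds tubulin and disturbs microtubules, damages sensory axons and is given to rats to model painful neuropathy. Oxycodone is an opioid analgesic. The cell bodies of the sensory axons lie in the dorsal root ganglia (DRG), together with satellite glia, Schwann cells, vessels and connective tissue. The question here was whether the difference that oxycodone treatment made to DRG gene expression was itself different in vincristine-treated rats, that is, the interaction of the treatments. It was calculated for each probe as the oxycodone minus saline difference in vincristine-treated rats less the same difference in control rats. The 16 arrays of 4 groups entered it, out of 24 arrays in 6 groups, with 4 rats per group and 1 array per rat. The other 8 arrays came from rats given morphine and served only to estimate the spread and to set the interaction of morphine beside that of oxycodone.

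All rats were male Sprague-Dawley animals of 3 months. Vincristine-oxycodone rats received vincristine at 0.1 mg/kg/day by intraperitoneal injection in 5-day cycles and then oxycodone. Vincristine-saline rats received the same vincristine and then saline. Saline-oxycodone rats received saline in place of vincristine and then oxycodone, and saline-saline rats received saline throughout. The rats of the first pair of groups are called vincristine-treated below, and those of the second pair control rats, each pair being an arm of the design. Lumbar ganglia were taken at D19, the last day of analgesic treatment, after a behavioural test that every group had gone through. RNA of whole ganglia was hybridised to Illumina RatRef-12 bead arrays. A lower level in such tissue can mean fewer cells of a type or less RNA per cell, which cannot be told apart.

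Of 22517 probes, 7043 were kept, being detected on at least 4 of the 24 arrays. Between 6112 and 6866 of the 22517 probes were detected on each of the 16 arrays. Ganglion markers were abundant: the mean log2 signal was 13.9 for Prph (peripherin, an intermediate filament of peripheral neurons), 12.9 for Scn10a (the sodium channel of nociceptors), 11.7 for Fabp7 (a satellite glia marker) and 14.2 for Pmp22 (a compact myelin protein). All 4 were detected on 16 of 16 arrays. Transcripts of tissue beside the neurons were detected too, with a mean log2 signal of 13.6 for the globin gene Hba-a1 and 9.07 for Acta1, the actin of skeletal muscle. The columns of the deposited table fall into 4 blocks of 6 adjacent arrays, and every group has 1 rat in each. These blocks, called sets below, accounted for 99.4% of principal component 1, itself 43.3% of the variance. Vincristine-oxycodone rats 3 and 4, vincristine-saline rat 2 and 3 morphine-treated rats had high skeletal muscle transcripts (muscle-high arrays, a mean log2 of the muscle list over 7.5). The sets are balanced over the groups, so each interaction could also be calculated within each set.

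No probe reached an adjusted p under 0.05 for the interaction (limma, Benjamini-Hochberg over 7043 probes; 0% called), and the smallest adjusted p was 0.99989. At an unadjusted p under 0.05 there were 83 probes (1.18% called), of which 40 were higher (0.568%) and 43 lower (0.611%). A share of 1.18% is below the 5% that an unadjusted threshold of 0.05 allows by itself, so the genes named below are those with the smallest p and not genes that passed a test. Adding the set as a block again called 0 probes after adjustment (0%) and 263 at an unadjusted p under 0.05 (3.73%). The fit without the block leaves the differences between sets in the spread, so its share below 5% says little about the number of effects. The precision limits what could be seen. The median standard error of an interaction was 0.167 on the log2 scale and the median 95% interval reached 0.348 to either side, or 0.117 and 0.246 with the set as a block, while the interactions themselves lay between -0.221 and 0.235 from the 5th to the 95th percentile. For 6428 of the 7043 probes the 95% interval lay within 1 log2 unit of 0 on both sides.

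The oxycodone differences within each arm were as sparse. In vincristine-treated rats 0 probes passed the adjusted threshold (0%) and 116 had an unadjusted p under 0.05 (1.65%). In control rats these counts were 0 (0%) and 188 (2.67%). With the set as a block, the counts were 0 (0%) and 274 (3.89%) in vincristine-treated rats, and 2 (0.0284%) and 513 (7.28%) in control rats, so that Dnajb1 and Isyna1 (inositol phosphate synthase) passed in the control arm in that fit. Without saline-oxycodone rat 1 the 188 became 414 and the 83 of the interaction 194, and without saline-oxycodone rat 4 they became 107 and 54. The arms share no array. Across probes the correlation of their differences was weak (Pearson's r = 0.0459, Spearman's rho = 0.110, as a description across probes that are not independent), and the sign was opposite for 3184 probes, or 45.2%. Of the 116 probes, 78 had the same sign in control rats, and of the 188 probes, 137 had the same sign in vincristine-treated rats. The lists shared 24 probes, which were 20.7% of the first list and 12.8% of the second, and 23 of the 24 had the same sign in both arms. The exception was Bcas1.

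**Figure D1:**
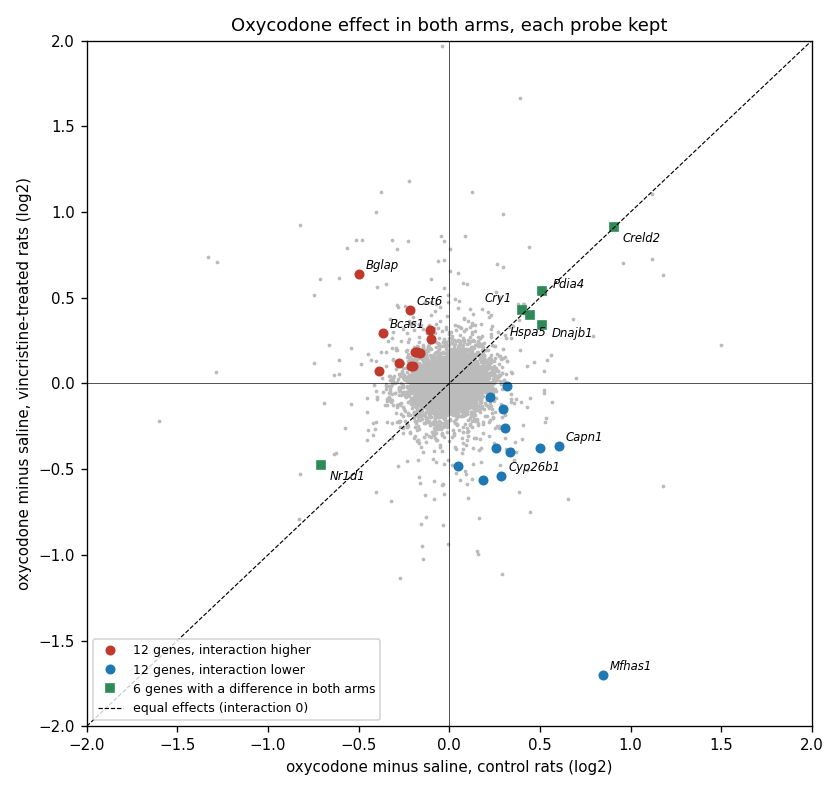
Oxycodone minus saline difference of each of the 7043 probes in control rats (x axis, log2) and in vincristine-treated rats (y axis, log2). Red and blue points are the 12 genes per direction with the smallest interaction p, which all lie in the quadrants of opposite sign, and green squares are 6 genes with a difference in both arms, which lie near the dashed line of equal differences. The genes were chosen by these same differences, so their places follow from the choice and nothing is read from them.

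The gene with the smallest interaction p was Bcas1, which encodes a protein of myelin-forming cells. In vincristine-treated rats its log2 signal was 9.23, 9.38, 8.90 and 9.18 after oxycodone and 8.88, 8.68, 9.14 and 8.81 after saline. In control rats it was 8.90, 8.66, 8.83 and 8.52 after oxycodone and 9.02, 9.06, 9.16 and 9.13 after saline. Oxycodone-treated rats were thus higher than saline-treated rats in the vincristine arm, with overlapping groups, and lower in the control arm, where all 4 lay below the lowest saline-saline rat. The differences were 0.29 and -0.36, and the interaction was 0.66 ± 0.165 (SE; 95% interval 0.32 to 1.00; limma unadjusted p = 0.000667, adjusted p = 0.99989). A two-sided exact permutation test over rats gave p = 0.0571 in the vincristine arm and p = 0.0286 in the control arm, the latter being the smallest that 4 against 4 rats allow. Since the named genes were chosen by these same values, the tests within the arms only describe them. The interaction was above 0 in all 4 sets. The interaction of morphine for Bcas1 was -0.08.

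None of the other 11 genes of the higher direction was among the list members with an unadjusted p under 0.05. The lists therefore do not show whether these genes shared a pathway. Perp, a p53 target of cell junctions, read 7.85, 7.61, 7.78 and 7.76 in vincristine-oxycodone rats and 7.30, 7.56, 7.54 and 7.36 in vincristine-saline rats. These groups did not overlap (exact permutation p = 0.0286). In control rats the values were 7.52, 7.65, 7.43 and 7.21 after oxycodone and 7.53, 7.66, 7.58 and 7.48 after saline, which overlap, and the interaction was 0.42 ± 0.126 (SE; limma unadjusted p = 0.00344). Cst6, the cysteine protease inhibitor cystatin E/M, differed mainly through low vincristine-saline rats. Its values were 7.64, 7.53, 8.14 and 7.36 in vincristine-oxycodone rats and 7.24, 7.18, 7.39 and 7.16 in vincristine-saline rats, against 7.72, 7.54, 7.59 and 8.21 in saline-oxycodone rats and 7.60, 8.14, 8.21 and 7.98 in saline-saline rats. The vincristine and the control arm both overlapped, and the interaction was 0.64 ± 0.236 (SE).

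For Gda, the guanine deaminase of purine breakdown, the control arm carried more of the interaction. Saline-oxycodone rats read 11.26, 11.13, 11.04 and 11.09 and saline-saline rats 11.39, 11.27, 11.46 and 11.51, without overlap. Vincristine-oxycodone rats read 11.55, 11.25, 11.50 and 11.60 and vincristine-saline rats 11.39, 11.30, 11.23 and 11.49, with overlap, for an interaction of 0.39 ± 0.137 (SE). Prps2, a synthetase that makes the sugar phosphate of nucleotides, had an oxycodone difference of -0.39 in control rats and 0.07 in vincristine-treated rats, without overlap in the control arm (8.73, 8.84, 8.75 and 8.43 against 8.92, 8.93, 9.21 and 9.24).

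The largest interaction among the higher genes was that of Bglap (osteocalcin, a bone matrix protein), 1.13 ± 0.354 (SE). Its signal was low, however, and was detected in 4, 1, 2 and 3 rats of the vincristine-oxycodone, vincristine-saline, saline-oxycodone and saline-saline groups. The remaining 6 were Dhx35 (an RNA helicase, 0.36), Nup37 (a nuclear pore protein, 0.34), Brd2 (a bromodomain protein that reads acetylated histones, 0.30), Kdm6b (a histone H3 demethylase, 0.37), Sat1 (the polyamine acetyltransferase, 0.36) and Pfkl (the liver form of phosphofructokinase, 0.32). Of the 12 genes, the oxycodone and saline groups did not overlap for 4 in the vincristine arm and for 4 in the control arm, and for none in both. Over all probes kept the groups did not overlap for 64 (0.909%) in the vincristine arm and 108 (1.53%) in the control arm. Since the 12 were chosen by the same values, nothing is read from their count.

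**Figure D2:**
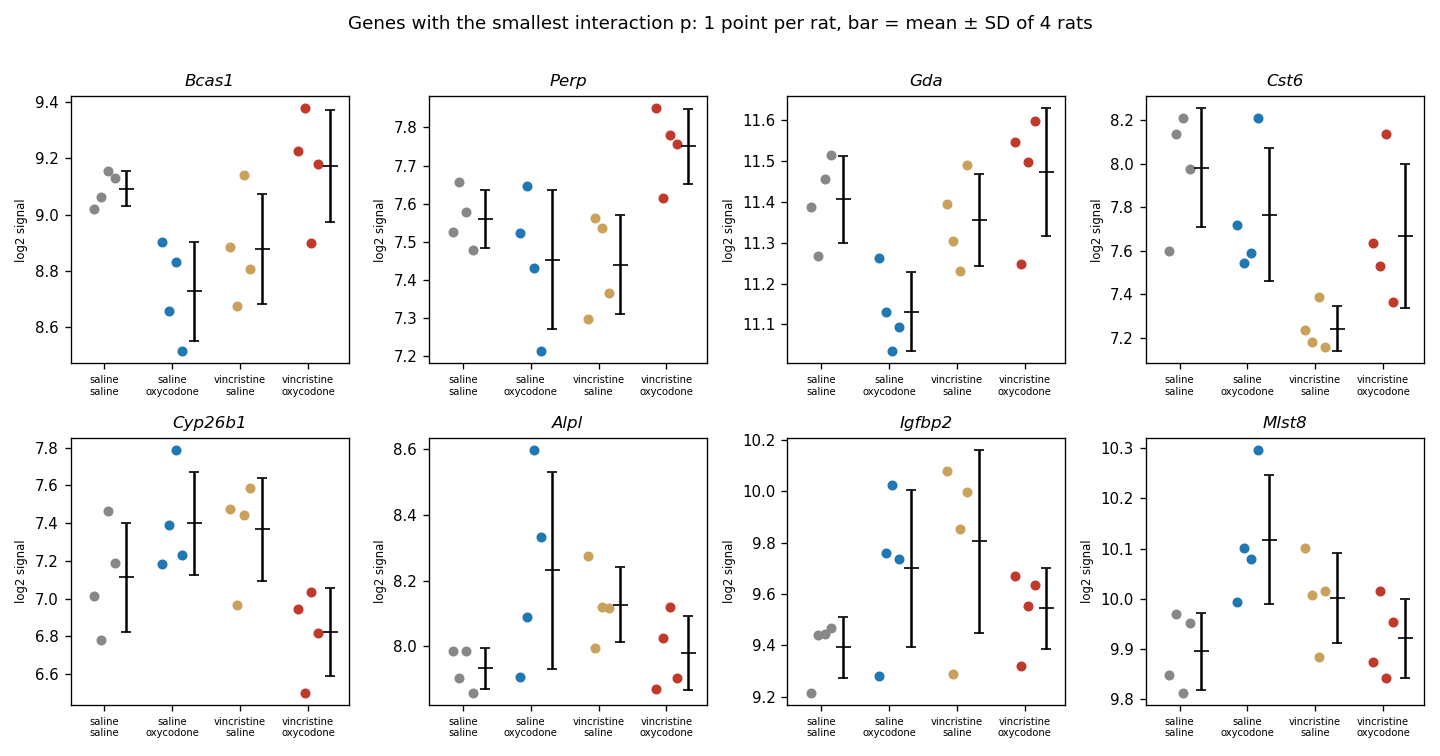
Log2 signal of each rat (points) for genes with small interaction p in the 4 groups, with the mean ± SD of 4 rats (bars). For Bcas1 the control arm separates without overlap and the vincristine arm moves the other way; for Cyp26b1 3 of 4 vincristine-oxycodone rats lie below all vincristine-saline rats.

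In the lower direction the smallest p belonged to Cyp26b1, the cytochrome that degrades retinoic acid. Vincristine-oxycodone rats read 6.95, 6.50, 7.03 and 6.82, and vincristine-saline rats 7.47, 6.96, 7.44 and 7.59. Saline-oxycodone rats read 7.19, 7.39, 7.79 and 7.23, and saline-saline rats 7.01, 6.78, 7.47 and 7.19. Oxycodone went with a lower signal in the vincristine arm (-0.54) and with a higher one in the control arm (0.29), with overlap in both. The interaction was -0.83 ± 0.227 (SE; 95% interval -1.30 to -0.36; limma unadjusted p = 0.00152, adjusted p = 0.99989) and was below 0 in all 4 sets. The exact permutation p was 0.0571 in the vincristine arm and 0.257 in the control arm.

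Mlst8, a subunit shared by both mTOR complexes, differed in the control arm. Saline-oxycodone rats read 9.99, 10.10, 10.08 and 10.30, all above the saline-saline rats at 9.85, 9.97, 9.81 and 9.95. In the vincristine arm the values were 9.87, 10.02, 9.84 and 9.95 after oxycodone and 10.10, 10.01, 9.88 and 10.01 after saline, and the interaction was -0.30 ± 0.102 (SE; limma unadjusted p = 0.00705). The neuronal repressor Scrt1 followed the same course, with saline-oxycodone rats at 11.06, 11.06, 11.14 and 11.42 against saline-saline rats at 10.96, 10.84, 10.73 and 10.88 and an oxycodone difference of -0.01 in the vincristine arm. Over all probes the interactions of oxycodone and morphine differed for 0 after adjustment (0%) and for 210 at an unadjusted p under 0.05 (2.98%). The named genes were chosen for their oxycodone interaction, so their own difference from morphine is given as values only, and both interactions use the same saline rats. For Mlst8 the interactions of oxycodone and morphine were -0.30 and 0.00, and for Scrt1 -0.33 and -0.03. For Cyp26b1 they were -0.83 and -0.57, for Shisa3 -0.75 and -0.82, and for Dhx35 0.36 and 0.32.

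The remaining lower genes included several with known roles in tissue around the neurons. Alpl (tissue-nonspecific alkaline phosphatase) read 7.87, 8.02, 8.12 and 7.91 in vincristine-oxycodone rats and 8.28 in vincristine-saline rat 1, with rats 3 and 4 of that group at 8.12 and rat 2 below them. It read 7.91, 8.09, 8.60 and 8.33 in saline-oxycodone rats and 7.99, 7.90, 7.99 and 7.86 in saline-saline rats. Its interaction was -0.44 ± 0.150 (SE), with the highest value in saline-oxycodone rat 3. Igfbp2, which binds insulin-like growth factors, read 9.67, 9.32, 9.55 and 9.63, then 10.08, 9.29, 9.86 and 10.00, then 9.28, 9.76, 10.02 and 9.73, and last 9.22, 9.44, 9.44 and 9.47 in the same order of groups, for an interaction of -0.57 ± 0.217 (SE). In both genes the groups overlapped in both arms.

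Shisa3, a regulator of Wnt and fibroblast growth factor receptors, had an interaction of -0.75 ± 0.293 (SE), with vincristine-oxycodone rats at 7.67, 7.64, 7.91 and 8.26 against vincristine-saline rats at 8.49, 8.41, 8.26 and 8.57. Prss35, a serine protease relative, had one of -0.53 ± 0.188 (SE). Efnb3, the membrane ligand ephrin-B3, rested in the control arm on 1 rat. Saline-oxycodone rat 3 read 8.07 while the other 3 read 6.97 to 6.99, and the interaction of -0.88 was -0.61 without that rat.

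Some values were near or below the limit of detection. Clec4a1 (a lectin of myeloid cells), Slc6a20a (an imino acid transporter) and Capn1 (the protease calpain 1) were each detected in 0 or 1 rats of the vincristine-oxycodone group and in 0 of the saline-saline group, so their interactions of -0.64, -0.74 and -0.97 compare values not well above background. For Slc6a20a vincristine-saline rats were at least 1.14-fold above vincristine-oxycodone rats, calculated against the lowest detected signal of each array. Mfhas1, a leucine-rich repeat protein, had the largest interaction of the 24 genes, -2.55, with the largest SE, 1.02. Its values fell into a high and a low range within groups: vincristine-oxycodone rats read 6.05, 8.95, 6.02 and 5.67 and saline-saline rats 7.86, 8.88, 5.91 and 8.14, while all 8 rats of the remaining groups read between 7.84 and 8.86. Without the muscle-high arrays its interaction was -1.60 (limma unadjusted p = 0.169).

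Gabbr2, which encodes the GABA-B2 subunit that carries the receptor to the membrane and couples it to G proteins, was of interest for the analgesic action of oxycodone. The study had picked it out on these same arrays, as higher in vincristine-oxycodone than in vincristine-morphine rats. The p-values below therefore only describe it. Its log2 signal was 11.19, 11.48, 11.33 and 11.42 in vincristine-oxycodone rats, 10.99 to 11.27 in vincristine-saline rats, 11.01 to 11.36 in saline-oxycodone rats and 11.06 to 11.44 in saline-saline rats. Oxycodone went with a difference of 0.18 in the vincristine arm (exact permutation p = 0.114) and -0.03 in the control arm (exact permutation p = 0.771). The interaction was 0.20 ± 0.132 (SE; 95% interval -0.07 to 0.48; limma unadjusted p = 0.141), an interval that holds 0. With the set as a block the unadjusted p was 0.0432 and the adjusted p 0.999. Without the muscle-high arrays the interaction was 0.12 (limma unadjusted p = 0.449), and with the set as a block as well it was 0.19 (limma unadjusted p = 0.172). Gabbr1, the subunit that binds GABA, lay between 7.38 and 7.86 in all 16 rats, and its interaction was 0.12 ± 0.160 (SE; 95% interval -0.21 to 0.45).

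Of 22 genes listed for GABA receptors, 4 were measured: Gabbr1, Gabbr2, Gabarap and Gphn. Gabarap and Gphn encode receptor-associated proteins and not subunits, so no GABA-A receptor subunit was among the measured genes. Of the 4 genes, 3 had an interaction above 0, with a median of 0.07. Of 12 genes listed for opioid receptors and opioid peptides, 4 were measured: Oprl1, Pnoc, Penk and Pcsk2, a protease that processes peptide precursors. No gene of the mu, delta or kappa opioid receptor was among these 4. Oprl1, the nociceptin receptor, read 7.69 to 8.36 over all 16 rats with an interaction of 0.02 (95% interval -0.42 to 0.45). Pnoc, its ligand's precursor, had one of -0.41 ± 0.293 (SE), and Penk, the enkephalin precursor, was detected in only 2 of the 16 rats. For 17 genes of signalling downstream of the mu-opioid receptor the median interaction was -0.02, with 6 above and 11 below 0. Over all probes kept 49.7% were above 0 and the median was -0.00, so these lists lay close to the background, and none of their genes had an unadjusted p under 0.05.

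The peptidergic nociceptor list had 8 measured genes, a median of 0.05 and 1 gene with an unadjusted p under 0.05, against 1.18% of all probes. That gene was Sst, the inhibitory peptide somatostatin, with an interaction of -0.52 ± 0.247 (SE; limma unadjusted p = 0.0494). Gal (galanin) and Npy (neuropeptide Y), peptides known to be induced in injured sensory neurons, varied from rat to rat. Npy read 7.70, 7.46, 8.50 and 9.28 in vincristine-oxycodone rats, 10.45, 9.28, 7.33 and 7.90 in vincristine-saline rats, 6.43, 8.86, 6.06 and 6.69 in saline-oxycodone rats and 6.15, 6.95, 6.24 and 6.98 in saline-saline rats. Its interaction of -0.94 had an SE of 0.954, too large to place it above or below 0.

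Over all probes 23 had an unadjusted p under 0.05 and the same sign in both arms (0.327%). Of these, 9 were of chaperones and foldases of the heat shock and unfolded protein responses, the programmes by which cells raise folding capacity in the cytosol and the endoplasmic reticulum (ER). Their interactions were near 0, which a choice by small p and the same sign in both arms favours. Of 34 genes listed, 26 were measured, the 9 being among them. In the vincristine arm 24 of the 26 were higher after oxycodone (median 0.19), against 50.4% of all probes, and in the control arm 23 (median 0.16), against 49.1%. The median interaction was 0.01, with 15 above and 11 below 0, and none had an unadjusted p under 0.05. ER chaperone genes are known to be switched on through the ER stress response element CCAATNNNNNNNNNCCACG. In the 250 bases before the start of the gene, on either strand, these letters occurred in 7 of 21 measured genes of the list with a promoter sequence (33.3%), against 21 of 27457 promoters (0.0765%) of all genes. The list was written from known members of the response, of which the element is a known property, so its share describes the list and bears on none of the differences. Shown here are the promoters (RefSeq, GRCr8, element in capitals, read on the strand of the gene) of Creld2 (chr7:121789134-121789383, plus strand, element on the opposite strand) and Hspa5 (chr3:38452766-38453015, plus strand), whose signal was higher after oxycodone in both arms, and of Canx (chr10:35157858-35158107, minus strand), whose signal was not.
Creld2: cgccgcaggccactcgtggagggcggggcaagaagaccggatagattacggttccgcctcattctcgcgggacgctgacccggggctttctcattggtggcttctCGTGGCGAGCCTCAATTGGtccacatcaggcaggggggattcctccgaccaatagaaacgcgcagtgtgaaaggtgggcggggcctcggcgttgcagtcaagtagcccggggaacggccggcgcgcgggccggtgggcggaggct
Hspa5: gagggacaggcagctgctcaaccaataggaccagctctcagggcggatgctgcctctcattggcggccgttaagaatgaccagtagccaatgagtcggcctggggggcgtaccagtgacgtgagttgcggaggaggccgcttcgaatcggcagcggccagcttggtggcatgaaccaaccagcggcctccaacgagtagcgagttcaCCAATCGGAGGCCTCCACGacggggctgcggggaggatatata
Canx: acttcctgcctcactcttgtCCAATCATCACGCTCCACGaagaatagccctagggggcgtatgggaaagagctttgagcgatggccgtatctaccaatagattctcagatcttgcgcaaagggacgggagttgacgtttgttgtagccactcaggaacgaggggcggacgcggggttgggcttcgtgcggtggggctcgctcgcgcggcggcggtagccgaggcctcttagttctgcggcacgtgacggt

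Creld2, an ER chaperone secreted under ER stress, read 8.54, 8.63, 9.49 and 8.44 in vincristine-oxycodone rats and 8.10, 8.03, 7.91 and 7.43 in vincristine-saline rats. It read 8.78, 8.84, 8.87 and 8.58 in saline-oxycodone rats and 8.06, 7.71, 8.06 and 7.61 in saline-saline rats. Neither arm overlapped (exact permutation p = 0.0286 in each), and the difference was 0.91 in both. The interaction was 0.00 ± 0.287 (SE), with a 95% interval from -0.60 to 0.60. Hspa5 (BiP, the main chaperone of the ER) was 0.40 and 0.44 higher after oxycodone in the vincristine and control arms, with 12.68, 12.97, 13.28 and 12.94 against 12.93, 12.49, 12.41 and 12.45 in the first and 12.99, 13.15, 12.93 and 12.89 against 12.49, 12.65, 12.55 and 12.51 in the second. Only vincristine-saline rat 1 reached the oxycodone range, and the interaction was -0.04 (95% interval -0.43 to 0.34). Canx (calnexin) had differences of -0.08 and -0.10.

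**Figure D3:**
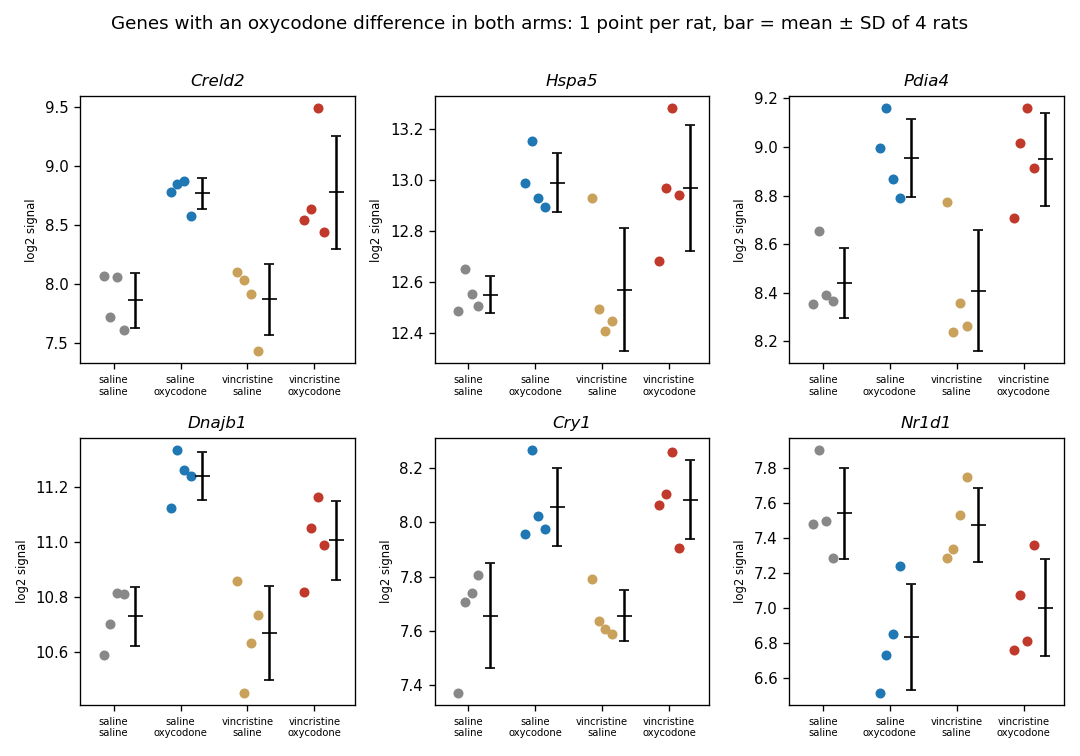
Log2 signal of each rat (points) in the 4 groups for 6 genes with an oxycodone difference in both arms, with the mean ± SD of 4 rats (bars). Creld2 and Cry1 separate without overlap in both arms, and vincristine-saline rat 1 is the highest of its own group for Hspa5 and Pdia4.

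Pdia4, a disulfide isomerase, was 0.54 and 0.51 higher in the vincristine and control arms, Manf, a secreted ER protein, 0.46 and 0.41, and Hspb1, the small heat shock protein Hsp27, 0.47 and 0.41. Dnajb1, the Hsp40 partner of Hsp70, differed by 0.34 and 0.51, the latter past the adjusted threshold when the set was a block. Its interaction of -0.17 ± 0.145 (SE) was also within error. Probes of 5 genes had oxycodone and saline groups that did not overlap in both arms (0.071% of all probes): Creld2, Cry1, Nfil3, Srpx and Trem2. Cry1 and Nfil3, repressors of the circadian clock, were higher after oxycodone by 0.43 and 0.40 and by 0.41 and 0.41. Srpx, a secreted sushi-repeat protein, and Trem2, a receptor of macrophages, had differences of -0.32 and -0.31 and of -0.48 and -0.28. All 5 thus had 1 sign in both arms, with interactions between -0.20 and 0.03. Nr1d1, the clock repressor REV-ERB alpha, lay the other way, with differences of -0.47 and -0.71 and an interaction of 0.23 ± 0.259 (SE).

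Among the 31 lists with measured genes, medians of the interaction lay within 0.2 of 0 except for the skeletal muscle, neutrophil and glucocorticoid-responsive lists. For the myelinating Schwann cell list, which holds Bcas1, the median was 0.18, with 7 genes above and 3 below 0 and values above 0 in all 4 sets. Of the 10 genes 2 had an unadjusted p under 0.05, against 1.18% of all probes, Bcas1 having been chosen by it. The other was Gldn (gliomedin, which gathers sodium channels at nodes), with an interaction of 0.31 ± 0.146 (SE). Saline-oxycodone rats read 8.98 to 9.07 for Gldn, below all saline-saline rats at 9.09 to 9.37. The mean level of the list was 9.96 to 10.29 in vincristine-oxycodone rats, 9.90 to 10.20 in vincristine-saline rats, 9.98 to 10.21 in saline-oxycodone rats and 10.14 to 10.31 in saline-saline rats, which overlap in both arms. The median was 0.09 without vincristine-oxycodone rat 1, 0.08 without saline-oxycodone rat 4, 0.11 without vincristine-saline rat 1 and 0.12 without vincristine-saline rat 4. Of 9 measured satellite glia genes the median was -0.01. Gja1 (connexin 43, the gap junction protein of astrocytes and related glia) had an interaction of -0.38 ± 0.171 (SE), with vincristine-oxycodone rats at 9.94, 10.24, 10.12 and 10.44 against 10.51, 10.40, 10.40 and 10.52 in vincristine-saline rats.

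**Figure D4:**
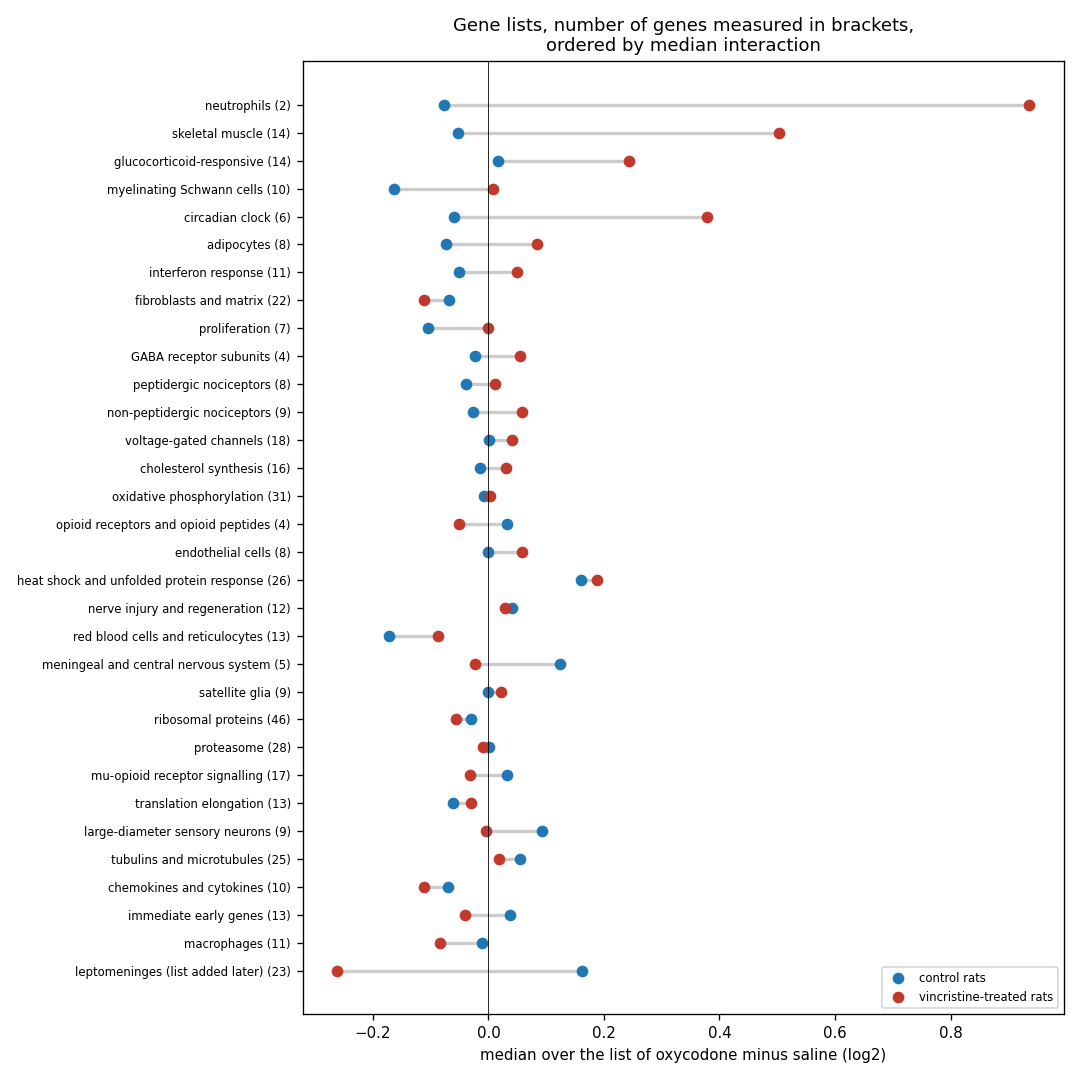
Median oxycodone minus saline difference (log2) over the measured genes of each list, in control rats (blue) and vincristine-treated rats (red), ordered by the median interaction. Most pairs lie near each other and near 0; the neutrophil, skeletal muscle, circadian clock and leptomeninges lists have the widest gaps.

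The glucocorticoid-responsive list had a median interaction of 0.22, with 13 of 14 genes above 0. This rested on 1 rat. The mean level of the list was 9.78 in vincristine-oxycodone rat 1 and between 8.57 and 9.06 in the other 15 rats, and without that rat the median was -0.01. It was 0.37 without the muscle-high arrays. Fkbp5, a co-chaperone of the glucocorticoid receptor, read 11.20 in that rat and 9.21 to 9.45 in the other vincristine-oxycodone rats. The clock gene Per1, which is also induced by glucocorticoids, read 9.29 against 7.88, 8.21 and 8.29. All 6 measured clock genes had an interaction above 0 (median 0.13, or 0.06 without the muscle-high arrays), and none had an unadjusted p under 0.05. The neutrophil list had only 2 measured genes. One of them, Lcn2 (lipocalin 2), read between 4.51 and 5.15 in 6 rats and between 6.70 and 7.83 in the other 10. The lower range lay below the lowest signal detected on any of the 16 arrays, 6.25. Lcn2 was detected in 4, 1, 3 and 2 rats of the vincristine-oxycodone, vincristine-saline, saline-oxycodone and saline-saline groups. All 4 vincristine-oxycodone rats were in the higher range, and each of the other groups held rats of both ranges.

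Genes of the interferon response had a median interaction of 0.10 over 11 measured genes, which turned to -0.09 without the muscle-high arrays. Irf7, the interferon regulatory factor that maintains this response, read 7.70, 7.48, 7.68 and 8.06 in vincristine-oxycodone rats and 6.99, 7.09, 7.28 and 7.66 in vincristine-saline rats, against 7.70 to 7.92 in saline-oxycodone rats and 7.69 to 8.37 in saline-saline rats. Its interaction was 0.61 ± 0.292 (SE), the only one of the 11 with an unadjusted p under 0.05 (1.18% over all probes), and 0.41 without the muscle-high arrays. For 11 macrophage genes the median was -0.13, with 8 below 0, and -0.23 without the muscle-high arrays. Cd74, the invariant chain of antigen presentation, had an interaction of -0.60 ± 0.301 (SE) with groups that did not overlap in the vincristine arm (7.57 to 8.22 after oxycodone and 8.24 to 8.49 after saline). For 46 ribosomal protein genes, 25 tubulin and microtubule genes, 31 genes of oxidative phosphorylation and 28 of the proteasome the medians lay between -0.03 and 0.02.

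Of the markers of tissue outside the ganglion, skeletal muscle transcripts were high in some rats and red blood cell transcripts in both vincristine groups. The skeletal muscle list had a median interaction of 0.59, with 12 of 14 genes above 0. Its mean level was 6.84, 6.95, 8.29 and 7.92 in vincristine-oxycodone rats, 6.69, 7.53, 7.01 and 6.75 in vincristine-saline rats, 6.43 to 6.81 in saline-oxycodone rats and 6.51 to 7.06 in saline-saline rats. Vincristine-oxycodone rats 3 and 4 and vincristine-saline rat 2 stood above the rest. Without the muscle-high arrays the list's median was 0.11, the interaction of Bcas1 was 0.72, and those of Brd2 and Pfkl were 0.17 and 0.18 in place of 0.30 and 0.32. Ckm (muscle creatine kinase) and Acta1 were detected on all 16 arrays, Tnnc2 on 12 and Actn3 on 4. The red blood cell list lay higher in both vincristine groups, at 9.68 to 10.6 against 8.48 to 9.32 in control rats, and its median interaction was 0.00. The part of these tissues in the other results was not tested.

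Some of the lower genes are known from the leptomeninges, the thin membranes that cover the spinal cord and roots. A list of 35 leptomeningeal genes was added after the values had been seen, and it is described without a test. Of the 35 genes, 23 were measured, 4 of them being among the 12 lower genes above (Cyp26b1, Alpl, Igfbp2 and Slc6a20a). The median interaction was -0.44, with 19 below and 4 above 0, against a median of -0.00 over all probes. In the vincristine arm 20 were lower after oxycodone (median -0.26), and in the control arm 18 were higher (median 0.16). The median interaction was below 0 in each set, at -0.13, -0.62, -0.64 and -0.53. That of morphine was -0.27. Since the list was drawn up with these same values known, nothing is read from these counts or from the agreement of the sets.

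The mean level of the 23 genes was 8.51, 8.27, 8.51 and 8.44 in vincristine-oxycodone rats and 8.78, 8.57, 8.71 and 8.78 in vincristine-saline rats, without overlap. It was 8.44, 8.46, 8.95 and 8.33 in saline-oxycodone rats and 8.52, 8.35, 8.46 and 8.22 in saline-saline rats. Saline-oxycodone rat 3 was the highest of the 16 and also carried the high values of Alpl and Efnb3, and without it the list's median was -0.32. Without the muscle-high arrays and with the set as a block it was -0.70. Among the members not named above, Gjb2 and Gjb6 (connexins 26 and 30) had interactions of -0.77 ± 0.359 and -0.77 ± 0.379 (SE). Gjb2 read 7.54, 7.36, 7.72 and 7.77 in vincristine-oxycodone rats and 7.97, 8.44, 8.35 and 8.32 in vincristine-saline rats, which did not overlap, and 7.34 to 8.58 and 7.53 to 8.58 in the control groups, which did. Igf2, the growth factor, had one of -0.76 ± 0.409 (SE), with the highest value, 11.92, again in saline-oxycodone rat 3.

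Members of the list varied. Ptgds (prostaglandin D synthase) had an interaction of 0.00, Lum (lumican) one of 0.14 and Cyp1b1 one of 0.02, while the matrix genes Fmod (fibromodulin) and Ogn (osteoglycin) had -0.73 ± 0.409 and -0.26 ± 0.292 (SE). The fibroblast and matrix list had a median of 0.09 over 22 genes, and the list of meningeal and central nervous system genes drawn up earlier one of 0.00 over 5. These 5 genes include Snap25 and Syt1, which neurons express, and the median is the value of Ptgds, so that list is not a second measure of the membranes. Whether the amount of membrane left on the dissected ganglia differed was not tested.

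**Figure D5:**
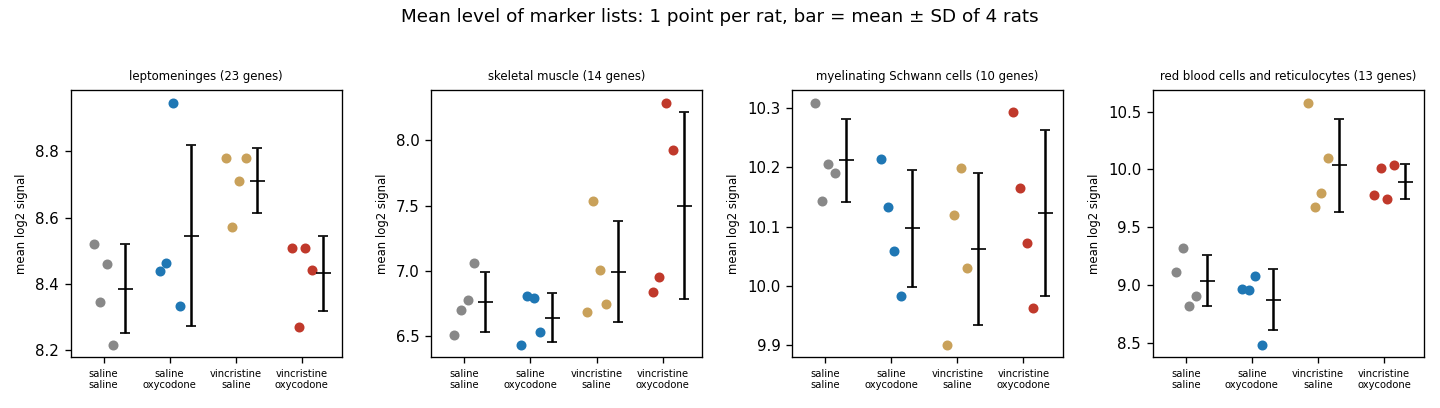
Mean log2 signal of marker lists in each rat (points) by group. The leptomeninges list, added after the values had been seen, separates vincristine-oxycodone from vincristine-saline rats, and saline-oxycodone rat 3 is its highest point. For skeletal muscle 3 of the 16 rats stand out.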

How the data were processed

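RNA of lumbar DRG from 24 rats (6 groups of 4, separate animals) was hybridised by the study to 1-colour Illumina RatRef-12 arrays. The vincristine dose was 0.1 mg/kg/day and the opioid dose 3.33 mg/kg. The authors deposited a table of probe signals as linear intensity values with a detection p-value per probe and array, from scanner software not given in the sources used here. The authors also deposited log2 values, which were the quantile-normalized log2 of these signals to within 0.00143 and were used only as an alternative. The study's methods excluded spots with a detection p above 0.05% and compared vincristine and analgesic treatment in 1 model without adjustment for multiple tests.

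Here neqc of limma 3.58.1 (R 4.3.3; offset 16, negative controls inferred from the detection p) corrected the background and quantile-normalized the signals. A probe was kept where its detection p did not exceed 0.0005 on 4 or more arrays. Means of 6 groups were fitted on 24 arrays with lmFit and eBayes, so that all groups share 1 estimate of the spread, and p-values were adjusted by Benjamini-Hochberg over 7043 probes at 0.05. Unadjusted p-values and 95% intervals come from the same fit. Single genes within an arm were also tested by a two-sided exact permutation test over 70 regroupings, whose smallest p is 0.0286. The number of arrays limits the precision. The script was tested on simulated data.

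Of the 22517 probes, 13787 had 1 gene name and 8730 none, the names being updated through Entrez identifiers or accessions to RefSeq. A gene measured by several probes is given by 1 of them. Genes named are the 12 per direction with the smallest interaction p, a fixed set from the study's question, and members of 32 gene lists. Some of them, such as Gabbr2 and Eef2k, had been reported by the study from these same arrays. The lists and the comparison were chosen with earlier results of these data known, and the leptomeninges list after values had been seen. Replicate numbers in the labels did not pair the samples. Promoter sequences are those of RefSeq (GRCr8). Figures were drawn with matplotlib 3.10.9. Alternatives covered normalization, the detection filter, blocks, array weights, the arrays fitted and each rat left out.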

Additional observations from a re-analysis of the deposited data

Results flagged for a closer look

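Within groups of 4 rats, the highest or lowest rat was set against the range of its group, and a rat was marked where its gap to the next, as a share of that range, passed Dixon's 95% critical value, as chance does in about 1 of 20 groups. Of 372 such groups over 93 genes and list levels, 18 were marked, which is close to the number that chance gives. That number takes no account of the sets.

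Saline-saline rat 1 stood apart for Capn1 at 6.31 (high), Igfbp2 at 9.22 (low), Tsc22d3 at 11.63 (low) and Cdh1 at 8.42 (high). For Cdh1 this followed the set. Vincristine-oxycodone rat 1, vincristine-saline rat 2 and saline-oxycodone rat 1, of the same set, read 8.36, 8.37 and 8.57. The other rats of both arms read 6.25 to 7.08. Of that set, saline-saline rat 1 had 4 marks, vincristine-saline rat 2 had 3, and rat 1 of each oxycodone group had 2. Outside it, vincristine-saline rat 1 had 2 and the other marked rats 1 each. Vincristine-saline rat 2 was low for Fkbp5 at 8.92, Isyna1 at 7.87 and Cd74 at 8.24. Vincristine-saline rat 1 was low for Sat1 at 10.19 and high for Hspa5 at 12.93. In the vincristine-oxycodone group, rat 1 was low for Oprl1 at 7.79 and high for Fkbp5 at 11.20, and rat 2 was high for Mfhas1 at 8.95. In the saline-oxycodone group, rat 1 was low for Mfhas1 at 7.84 and for the mean level of the glucocorticoid-responsive list at 8.63, rat 3 was high for Efnb3 at 8.07, and rat 4 was high for Ntrk2 at 9.27. Saline-saline rat 2 was high for Pdia4 at 8.66 and rat 3 low for Ptgds at 13.45.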

How the results depend on the processing

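The count of 0 probes past the adjusted threshold for the interaction held under every alternative run, and the smallest adjusted p that any of them gave was 0.59 (set as a block, without the muscle-high arrays). None of the 24 genes with the smallest interaction p changed sign in any of the 30 or 31 settings run for each. The 24 were chosen by these same values and the settings reuse the same arrays, so nothing is read from this. Counts at an unadjusted p under 0.05 are given in the order interaction, vincristine arm, control arm and difference between the opioids. They were 83, 116, 188 and 210 of 7043 probes (1.18%, 1.65%, 2.67% and 2.98%). They became 11, 35, 26 and 59 with normexp and median centring. With no detection filter they were 603, 667, 790 and 826, but of 22517 probes, and with a looser one 220, 273, 368 and 413 of 12740. These counts are thus not on the same base as the others. With the set as a block they were 263, 274, 513 and 618 (3.73%, 3.89%, 7.28% and 8.77%), and with array weights 329, 288, 455 and 565. Without the muscle-high arrays the first 2 were 130 and 215, and with the set as a block as well all 4 were 224, 337, 462 and 440. Leaving out 1 rat gave 54 (saline-oxycodone rat 4) to 194 (saline-oxycodone rat 1), 106 to 157, 107 (saline-oxycodone rat 4) to 414 (saline-oxycodone rat 1) and 141 to 405 (saline-oxycodone rat 1). After adjustment, the control arm had 2 probes with the set as a block (Dnajb1 and Isyna1) and 1 when the muscle-high arrays were left out as well. The correlation of the arms across probes was -0.100 with array weights and -0.0133 without the muscle-high arrays, and -0.0193 to 0.112 with 1 rat left out. Spearman's rho was -0.0488 with array weights and 0.0504 to 0.145 with 1 rat left out. The share of opposite signs was 36.8% with normexp and median centring, 51.6% with array weights, and 44.4 to 47.5% with 1 rat left out. The cause of these moves was not tested.

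The replicate number of the labels as a block (replicate block) gave 94, 120, 202 and 219 probes at an unadjusted p under 0.05 and 0 after adjustment, and changed no call. The replicate number equalled the number of the set in column order for 18 of 24 arrays. Pairs of rats of 1 number thus mix rats of 1 set with rats of different sets. Deviations of rats of 1 number correlated with a mean r of 0.0447, above 0.1 in 30 of 60 pairs. For rats of 1 set these values were 0.412 and 53 of 60. The fit of the 16 arrays alone gives no value for the difference between the opioids. Probes near background limit what can be said of Bglap, Capn1, Clec4a1 and Slc6a20a. The same holds for genes such as Prss35, Kdm6b, Mfhas1 and Lcn2, which were undetected in some rats.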

Other observations

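The median interactions of the gene lists not described above were 0.11 over 8 adipocyte genes (7 above 0), 0.08 over 7 proliferation genes (6 above 0), 0.01 over 8 endothelial genes, -0.04 over 10 genes of chemokines and cytokines, -0.02 over 13 genes of translation elongation, 0.05 over 9 non-peptidergic nociceptor genes, -0.03 over 9 genes of large-diameter sensory neurons, 0.00 over 12 genes of nerve injury and regeneration, 0.04 over 18 voltage-gated channel genes, 0.03 over 16 genes of cholesterol synthesis and -0.05 over 13 immediate early genes. Ntrk2, the receptor for brain-derived neurotrophic factor, had an interaction of -0.39 with an SE of 0.249.

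Eef2k, the kinase that inactivates translation elongation factor 2, varied over a wide range within groups. It read 7.26, 6.78, 6.78 and 8.73 in vincristine-oxycodone rats, 6.44, 8.51, 9.51 and 9.63 in vincristine-saline rats, 9.24, 8.75, 8.77 and 8.65 in saline-oxycodone rats and 8.58, 8.83, 9.56 and 9.52 in saline-saline rats. Its interaction was -0.86 with an SE of 0.801, and its difference from the interaction of morphine was -2.78. The study had reported Eef2k for differences between morphine and oxycodone on these same arrays, so this value only describes it. Alox15, a lipoxygenase of maturing red cells and eosinophils, was detected in all 8 vincristine-treated rats, at 8.79 to 11.74, and in 0 of the 8 control rats, irrespective of oxycodone.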
